A study of Mus musculus with 2 samples.

Results

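The genes described here are 10 members of the matrix metalloproteinase system of the mouse: 7 metalloproteinases (Mmp2, Mmp3, Mmp9, Mmp11, Mmp13, Mmp14 and Mmp19) and 3 tissue inhibitors of metalloproteinases (Timp1, Timp2 and Timp3). They were chosen by name from the 12393 genes that had at least 1 probe set annotated to a single symbol, and every such probe set was kept, 22 in all, dim ones included. The samples were 2 Affymetrix arrays of LM8, a mouse osteosarcoma line that spreads to the lung, with 1 array for each of 2 stable clones. The hPHD4 clone carried a full-length cDNA of human PHD4, a prolyl hydroxylase of the endoplasmic reticulum, in pcDNA3.1. The control clone carried the pcDNA3.1 vector without an insert. Both had been transfected with Lipofectamine and grown under 0.5 mg/ml G418, and 5 µg of total RNA was labelled per array. Each group was 1 clone, so an effect of hPHD4 and a difference between any 2 clones cannot be told apart, and with 1 array per clone nothing was replicated and no test could be made. They are called hPHD4 cells and control cells from here on.

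Matrix metalloproteinases (MMPs) are zinc endopeptidases that cut collagens and other components of the extracellular matrix. They are made as inactive proenzymes, in which a cysteine of the propeptide occupies the zinc of the active site, and they become active once that propeptide is removed. TIMPs are small secreted proteins that block the active site, so the activity in a tissue depends on transcription, on proenzyme activation and on the inhibitors together. In bone, osteoblasts and hypertrophic chondrocytes make collagenase 3 (Mmp13), the main collagenase of rodents, and its promoter is a textbook target of AP-1 and RUNX2.

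Promoter stretches of 4 members are shown: the 3 that differed by at least 1.5-fold between the clones (Mmp13, Timp2 and Mmp11), and Mmp3, a neighbour of Mmp13 on the same chromosome that was dim in both clones. Each runs 5′ to 3′ over the 250 bases before the annotated start (RefSeq, GRCm38.p6). Capitals mark AP-1 sites (TGANTCA), RUNX sites (TGTGGT or its complement ACCACA) and the TATA sequence TATAAA (or its complement TTTATA), searched on both strands. None of these marked matches overlapped another.
Mmp13, chr9:7272264-7272513, plus strand: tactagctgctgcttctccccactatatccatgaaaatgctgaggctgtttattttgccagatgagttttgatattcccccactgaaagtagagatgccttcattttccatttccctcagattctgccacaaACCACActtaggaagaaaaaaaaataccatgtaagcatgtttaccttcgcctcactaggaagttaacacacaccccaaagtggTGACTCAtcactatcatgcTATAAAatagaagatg
Mmp3, chr9:7445572-7445821, plus strand: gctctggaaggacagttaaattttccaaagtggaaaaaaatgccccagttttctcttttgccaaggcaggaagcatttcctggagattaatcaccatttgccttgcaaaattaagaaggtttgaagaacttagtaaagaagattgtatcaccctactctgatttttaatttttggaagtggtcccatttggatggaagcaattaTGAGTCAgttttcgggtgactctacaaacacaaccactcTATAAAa
Mmp11, chr10:75932503-75932752, minus strand: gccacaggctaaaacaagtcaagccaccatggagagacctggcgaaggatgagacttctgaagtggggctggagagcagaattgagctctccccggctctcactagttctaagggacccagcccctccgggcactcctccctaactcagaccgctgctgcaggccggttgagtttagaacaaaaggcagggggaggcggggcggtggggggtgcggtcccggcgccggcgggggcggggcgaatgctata
Timp2, chr11:118355412-118355661, minus strand: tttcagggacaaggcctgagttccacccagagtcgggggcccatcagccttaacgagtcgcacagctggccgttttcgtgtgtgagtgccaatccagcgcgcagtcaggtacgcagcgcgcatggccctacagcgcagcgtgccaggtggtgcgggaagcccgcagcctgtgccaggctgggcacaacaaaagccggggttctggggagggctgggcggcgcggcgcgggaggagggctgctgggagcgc

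Of the 7 members with a promoter in the RefSeq table, Mmp13 and Mmp3 held an AP-1 match, as did 6.75% of all 32851 promoters of the table over the same 250 bases. These same 2 members held the TATA match, which 12.4% of all promoters held, and 1.21% of all promoters held both. The RUNX match lay in the promoters of Mmp13 and Mmp14, against 14.0% of all. In the Mmp13 promoter the RUNX, AP-1 and TATA matches began at −118, −35 and −16 relative to the annotated start, and in the Mmp3 promoter the AP-1 and TATA matches began at −46 and −7. The share of G and C was 40.4% for Mmp13 and 37.6% for Mmp3, between 54.4% and 68.0% for Mmp11, Mmp14 and the 3 TIMP genes, and 53.2% on average over all promoters. The 4-letter core of ETS sites, GGAA or TTCC, lay in 93.4% of all promoters and so separates little; Mmp13 had 5 matches and Mmp11 had 0. A match describes letters and is not evidence of binding.

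The deposited values were log2 MAS5 signals, with trimmed means that were near equal on both arrays. A floor stood in for the detection calls, which were not used here. It lay at the 40th percentile of each array, at a linear signal of 81.1 in hPHD4 cells and 67.8 in control cells, and 7452 genes had a probe set above it on both arrays. These genes are called measured, and their value is the mean log2 ratio of hPHD4 over control across such probe sets. A gene above the floor on 1 array alone was given as a bound against the floor or the dim signal, whichever was higher. Probe sets of the same gene disagreed by an SD of 0.35 in log2 ratio (7007 probe sets, 2800 genes); it covers neither cultures nor clones. The labels were not checked against the transgene, which was a human cDNA. For P4htm alone, the mouse gene of PHD4, the array had 0 probe sets. Of 11 osteoblast markers 8 had a probe set of their own. Of these, 6 lay above the floor in both clones (Alpl, Col1a1, Col1a2, Dlx5, Ibsp and Sp7), while Dmp1 and Phex lay under it. Over the whole array 7452 of 12393 genes lay above it in both, a share to set beside this count. The later marker counts are per clone, and for them this share is too low. It leaves out genes above the floor in 1 clone alone, among them 823 given as a bound. Of the 6 log2 ratios 4 were above 0 and 2 below, Col1a2 at −0.43 and Col1a1 at −0.11. Ibsp (bone sialoprotein) was 2.13-fold higher in hPHD4 cells, with ratios of 1.56 and 0.61 on its 2 probe sets. Summed linear signals of the 8 markers were 31392 in hPHD4 cells and 37062 in control cells. Of these sums Col1a2 gave 17563 and 22636 on its brighter probe set.

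Among the 10 members, 6 were measured, 3 were given as bounds and 1, Mmp3, lay under the floor in both clones. Mmp13 and Timp2 were at least 1.5-fold lower in hPHD4 cells, against 5.45% of the 8275 genes of the array that were measured or given as a bound. Mmp11 was at least 1.5-fold higher, against 11.5% of those genes. At 2-fold, Mmp13 alone was lower, against 1.12%, and no member was higher. The 6 measured members had a median log2 ratio of −0.47, with 4 below 0 and 2 above, beside a median of 0.03 over all 7452 measured genes. Of those 7452 genes 3458 were below 0 and 3994 above. Of the 22 probe sets 15 lay above the floor in both clones, 9 of them with a ratio below 0 and 6 above. Probe sets of 1 gene are not independent: Timp2 gave 5 of the 9, and Timp3 gave 4 of the 6. Read from the brightest probe set of each gene, the median of the members was −0.12.

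**Figure D1:**
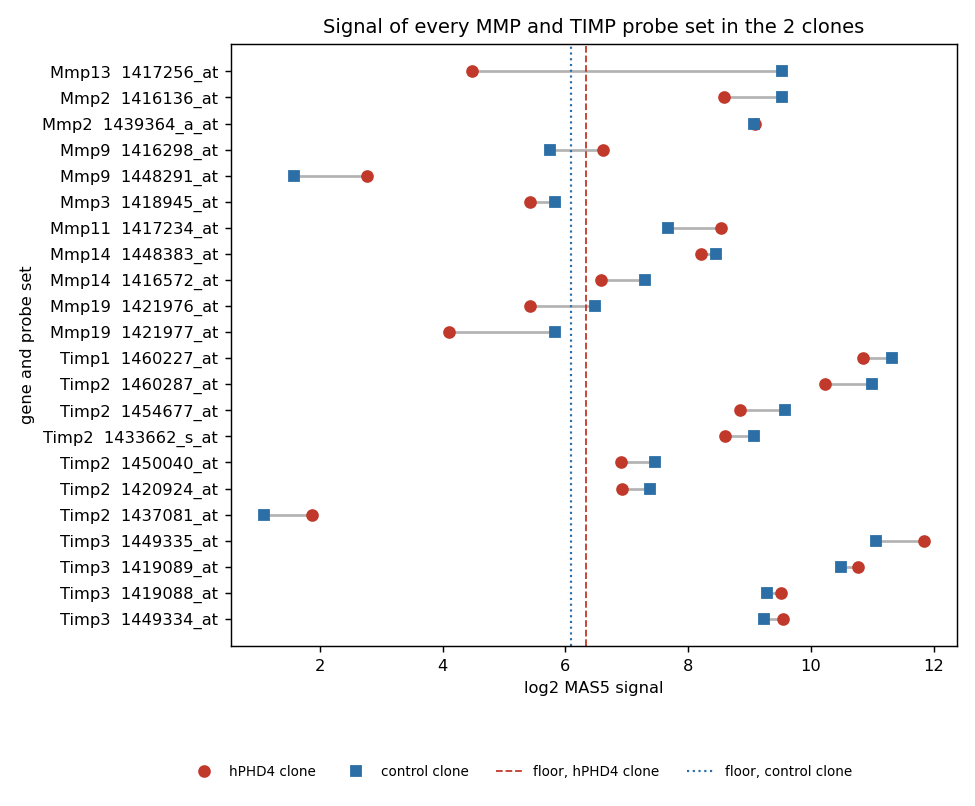
Log2 MAS5 signal of all 22 MMP and TIMP probe sets, 1 line each, in hPHD4 cells (red circles) and control cells (blue squares), 1 array per clone; vertical lines mark the floor of each array. The Mmp13 line is the longest, from 9.52 in control cells to 4.48 in hPHD4 cells, and crosses both floors.

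The collagenase gene Mmp13 differed most. Its 1 probe set, 1417256_at, had a linear signal of 736 in control cells and 22.3 in hPHD4 cells, log2 signals of 9.52 and 4.48. The control signal was above the 75th percentile of its array (532), and the signal of hPHD4 cells was well under the floor of 81.1. Since the lower signal has no reliable size, the difference is a bound: Mmp13 was at least 9.07-fold lower in hPHD4 cells.

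That combination was rare on these arrays. Mmp13 was known beforehand to be dim in 1 clone, so the counts given here describe it and test nothing. Of 5657 probe sets above the 75th percentile in control cells, 1 lay under the floor in hPHD4 cells, or 0.0177%, and that 1 was Mmp13. Of 268 genes given as a bound below 0, none had a lower bound, and of the 7452 measured genes 2 had a lower log2 ratio than its bound of −3.18. The bound follows from the floor: it was −1.65 on the log2 scale with the floor at the 60th percentile and −4.90 with it at the 20th. A single probe set on 1 array per clone stands behind it. RNA from bulk cultures does not tell fewer cells expressing Mmp13 from less Mmp13 RNA per cell.

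**Figure D2:**
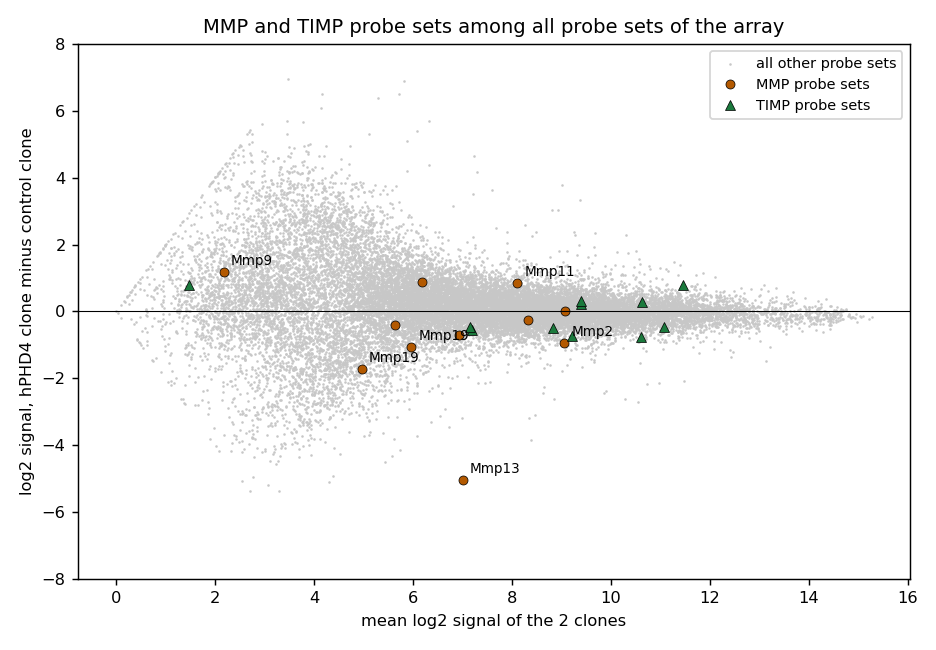
Difference of log2 signal (hPHD4 minus control) against mean log2 signal for every non-control probe set (grey), with the MMP (orange circles) and TIMP (green triangles) probe sets marked. The differences fan out at low signals, where the dim probe sets of Mmp9 and Mmp19 lie; Mmp13, at −5.04, lies outside the cloud at its mean signal.

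Mmp13 opens a cluster of MMP genes on chromosome 9. In the order of the gene table it is followed by Mmp12 (macrophage elastase), Mmp1b, Mmp3 (stromelysin 1), Mmp1a, Mmp10 (stromelysin 2), Mmp8 (neutrophil collagenase), Mmp27, Mmp20 (enamelysin) and Mmp7 (matrilysin). Mmp27 had no probe set of its own. Of the other 8 followers, 7 lay under the floor in both clones. Mmp3 had linear signals of 42.7 in hPHD4 cells and 57.1 in control cells, both under the floors, so it is given no fold. Mmp10 had signals of 14.1 and 41.2, and Mmp12 of 6.39 and 2.97. Mmp8 was above the floor in hPHD4 cells alone, at 99.97 against 39.5, a bound of at least 1.47-fold higher.

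Dcun1d5, before Mmp13, had linear signals of 1783 and 1706 on its measured probe set, a log2 ratio of 0.06. Tmem123, after Mmp7, lay at −0.10 and −0.21 for its 2 probe sets, and Birc2, the next gene, at 0.52 (signals 152 and 106). The median over 421 measured genes of chromosome 9 was 0.01. Mmp13 was thus the 1 gene of the cluster above the floor in control cells, and the measured genes on either side had differences of smaller size.

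**Figure D3:**
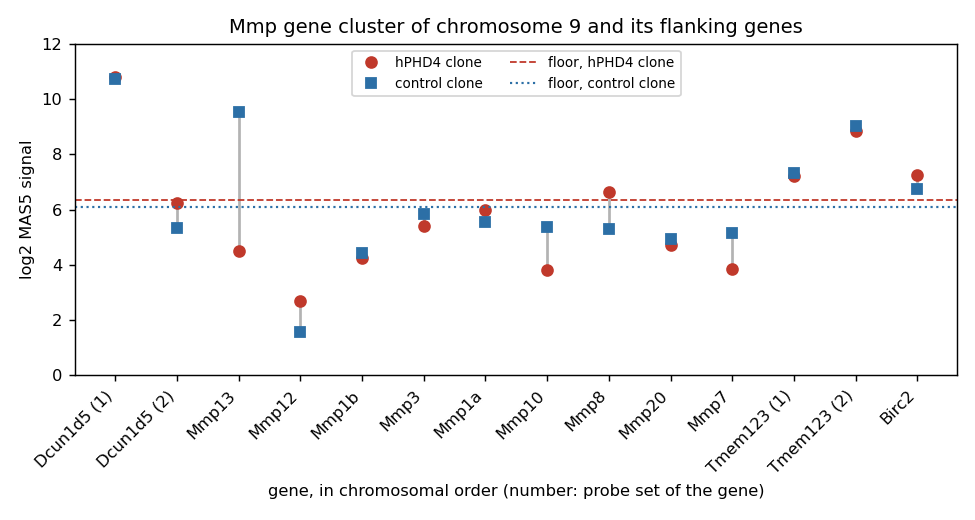
Log2 MAS5 signal of the genes of the chromosome 9 Mmp cluster and of their flanking genes, in chromosomal order, in hPHD4 cells (red circles) and control cells (blue squares); horizontal lines mark the floors. Mmp13 stands at 9.52 in control cells, while Mmp12 to Mmp7 lie near or under the floors in both clones.

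Mmp2 and Mmp14 belong to one activation step at the cell surface. Mmp14 (MT1-MMP) is anchored in the plasma membrane, and together with Timp2 as a bridge it binds and cleaves pro-Mmp2 (gelatinase A). All 3 genes had log2 ratios below 0, at −0.48 for Mmp14, −0.47 for Mmp2 and −0.60 for Timp2. Mmp14 and Mmp2 fell short of 1.5-fold.

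For Mmp2, probe set 1416136_at had linear signals of 382 in hPHD4 cells and 739 in control cells, a log2 ratio of −0.95. The other, 1439364_a_at, had 541 and 539, a ratio of 0.01. The SD between these 2 was 0.68, against 0.37 for genes of similar brightness, so whether Mmp2 was lower depends on the probe set read. Its mean of −0.47 lay at the 8.68th percentile of measured genes.

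For Mmp14, probe set 1448383_at had linear signals of 295 and 349, a log2 ratio of −0.24, and 1416572_at had 95.5 and 157, a ratio of −0.72. Both were lower in hPHD4 cells, the second close to the floor there. The mean of −0.48 was 1.19 times the SD of 0.40 for genes of its brightness. It became −0.24 at a floor of the 60th percentile and −0.24 with the brightest probe set alone. It was −0.59 after quantile normalization and −0.62 once the median of chromosome 14 (0.14) was subtracted, past 1.5-fold in both.

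Timp2 was lower on 5 of its 6 probe sets. From the brightest down, linear signals in the hPHD4 and control cells were 1201 and 2028 for 1460287_at, 460 and 760 for 1454677_at, 386 and 540 for 1433662_s_at, 120 and 177 for 1450040_at, and 121 and 166 for 1420924_at. Their log2 ratios ran from −0.76 to −0.46 with an SD of 0.14, a closer match than the 0.37 for genes of its brightness. The sixth, 1437081_at, was far under the floor in both clones, at 3.65 and 2.13, and entered no value.

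The mean of the 5 was −0.60, or 1.51-fold lower, just past the threshold of 1.5. Of 7452 measured genes 365 had a lower ratio. Timp2 lay short of 1.5-fold with a pseudocount of 50 added to the linear signals (−0.52) and with dim probe sets kept, whether raised to a floor (−0.50) or used as deposited (−0.37). It was below 0 in every alternative tried. The median of chromosome 11 was 0.07. Of the genes nearest Timp2, Cyth1 had a ratio of 0.77, Usp36 of 0.52 and Lgals3bp of −0.43. Cep295nl, above the floor in hPHD4 cells alone, had a bound of 0.53.

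Timp1 and Timp3 lay on opposite sides of 0. Timp1, a soluble inhibitor on the X chromosome that also binds pro-Mmp9, had linear signals of 1846 and 2539 on its 1 probe set, a log2 ratio of −0.46 (1.38-fold lower in hPHD4 cells). That is 1.66 times the SD of 0.28 for genes of its brightness and short of 1.5-fold. Syn1, the synapsin gene in which Timp1 is nested, had a ratio of −0.33, while the nearby genes Araf and Elk1 were at 1.02 and 0.34.

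Timp3, the inhibitor that stays bound to the matrix and also blocks Adam17 and the aggrecanases, was higher in hPHD4 cells on all 4 of its probe sets. Linear signals in the hPHD4 and control cells were 3678 and 2122 for 1449335_at, 1738 and 1441 for 1419089_at, 745 and 603 for 1449334_at, and 727 and 625 for 1419088_at. The log2 ratios were 0.79, 0.27, 0.31 and 0.22, so the probe set with the strongest signal stood apart from the other 3. Their mean was 0.40 (1.32-fold higher), at the 82.3rd percentile of measured genes, and the brightest probe set alone would put Timp3 past 1.5-fold.

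**Figure D4:**
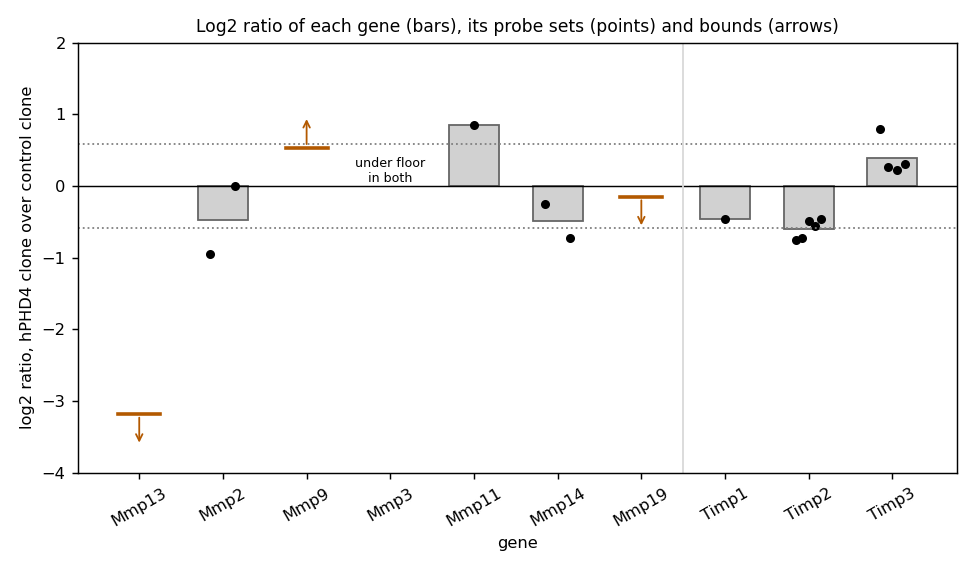
Log2 ratio, hPHD4 over control, of each gene (grey bars, mean over probe sets above the floor in both clones), of those probe sets (points) and bounds (orange, arrows towards the values they allow); dotted lines mark 1.5-fold, and there are no error bars because each clone had 1 array. Mmp13 has a bound of −3.18, Timp2 sits at −0.60 with its points close together, and the points of Mmp2 lie far apart.

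Mmp11 was the measured member that lay highest. Mmp11 (stromelysin 3) is a stromal proteinase of tumours and, unlike most secreted members, is activated by furin inside the cell. Its 1 probe set had linear signals of 370 in hPHD4 cells and 204 in control cells, a log2 ratio of 0.86 or 1.81-fold higher. That was 2.33 times the SD of 0.37 for genes of its brightness, and 237 of 7452 measured genes had a higher ratio. It stayed past 1.5-fold in every alternative, from 0.72 to 0.86, as a bound with the floor at the 60th percentile. Furin itself had signals of 373 and 204, a ratio of 0.87. On chromosome 10, next to Mmp11, Chchd10 had a ratio of 0.57 and Smarcb1 of 0.08.

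Mmp9 and Mmp19 were close to the floor and lay on opposite sides. Mmp9 (gelatinase B), a product of osteoclasts and myeloid cells in bone, had linear signals of 98.3 and 53.9 on 1416298_at, above the floor in hPHD4 cells alone, and of 6.79 and 2.99 on 1448291_at, under it in both. The bound was at least 1.45-fold higher in hPHD4 cells, short of 1.5-fold. This size depends on the floors and the scaling. On the log2 scale the bound was 0.53, and 0.29 after quantile normalization or loess correction. The value was 0.14 with dim signals raised to 1 floor and 0.87 at a floor of the 20th percentile. At a floor of the 60th percentile Mmp9 was under it in both clones. Of the 5 osteoclast markers on the array 1 was measured: Ctsk (cathepsin K) had signals of 202 and 95.3, 2.12-fold higher in hPHD4 cells. Oscar, a receptor of osteoclasts, had 120.5 and 33.4 on its brighter probe set, above the floor in hPHD4 cells alone, a bound of at least 1.78-fold higher. Acp5, Calcr and Ocstamp were under the floor in both clones, Ocstamp with the lower signal in hPHD4 cells. Summed linear signals of these 5 were 378 in hPHD4 cells and 215 in control cells. Of 10 macrophage markers 4 were above the floor in hPHD4 cells and 6 in control cells, with sums of 792 and 665, and Ptprc and Itgam were above it in neither. Of 6 neutrophil markers 1 was above it in each clone, with sums of 260.2 and 210.4; these were Mpo (myeloperoxidase), at least 1.70-fold higher in hPHD4 cells, and Elane (neutrophil elastase), at least 1.04-fold lower. The sums of osteoclast, macrophage and neutrophil markers include signals under the floor, which have no reliable size. The part of these markers in the Mmp9 signal was not tested.

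Mmp19, a secreted proteinase without a place in the classical subfamilies, had linear signals of 43.0 and 89.9 on 1421976_at and of 17.1 and 56.7 on 1421977_at. Both were lower in hPHD4 cells, but all of them were near or under the floor. Its bound was at least 1.11-fold lower. It was past 1.5-fold at a floor of the 20th percentile (−1.06) and with no filter and no floor (−1.40), and below 0 in every alternative that gave it a value.

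For hypertrophic chondrocytes, the other cell type that makes Mmp13, the marker list held mostly general cartilage genes. Of its 7 genes on the array, 4 were above the floor in hPHD4 cells and 3 in control cells. Summed signals were 2664 and 1649, of which Col2a1 gave 1766 and 1188. Col10a1, the defining collagen of hypertrophic chondrocytes, had signals of 8.33 and 7.15, under the floor in both clones. Of the 3 measured markers Col9a1, at a ratio of 1.16, and Col2a1, at 0.57, were higher in hPHD4 cells, and Sox9, at −0.29, was lower. Ihh, above the floor in hPHD4 cells alone, was given as a bound of at least 1.77-fold higher. Their part in the Mmp13 difference was not tested. Of the endothelial markers 3 and 2 of 6 were above the floor, and of the epithelial markers 1 and 0 of 6, the 1 being Krt8 (keratin 8), at least 2.55-fold higher in hPHD4 cells.

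Other genes of the family and its pathway were read from lists; all of these lists share the same 2 arrays and none was tested. Of 12 further MMP and TIMP genes with a probe set of their own, 2 were measured and 7 were under the floor in both clones. The remaining 3 were given as bounds, all above 0. Most bounds of the array lay above 0: of 823 in all, 268 were below it. Mmp24 and Mmp16, both membrane-type MMPs, were at least 2.14-fold and 1.61-fold higher in hPHD4 cells, each on its brighter probe set. The other probe set lay under the floor in both clones, at 49.5 and 50.1 for Mmp24 and 9.27 and 4.66 for Mmp16. Timp4 had 1 measured probe set at 82.8 and 74.8, just above the floors, a ratio of 0.15. Its other probe set had 37.9 in hPHD4 cells and 185 in control cells, so the 2 disagreed in direction.

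Relatives of the MMPs lay on both sides of 0. Of 17 ADAM and ADAMTS genes 10 were measured, with a median log2 ratio of 0.24, and 2 were at least 1.5-fold higher and 1 lower. Adamts4, an aggrecanase, had a ratio of 0.98 (signals 198 and 100.3). Adam8, a proteinase of leukocytes and tumours, had 0.63 (signals 111 and 71.6, the second near the floor). Adamts1, which cuts versican and aggrecan, lay at −0.68 (signals 1015 and 1623). Adam17, the sheddase of TGF-alpha and a target of Timp3, was at 0.46 over 3 probe sets. Among 7 genes of the astacin proteinases and their enhancers, 3 were measured with a median of −0.09, and Mep1a (meprin alpha) was given as a bound of at least 1.80-fold higher.

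Proenzyme activators were measured for 4 of 12 genes, with a median of 0.21; Furin at 0.87 was the 1 past 1.5-fold. Plaur, the urokinase receptor, was at −0.02, and Plau (urokinase), which starts the plasmin cascade that activates several MMPs, was under the floor on both probe sets in both clones. Of 13 inhibitors, inducers and clearance genes 6 were measured, with a median of −0.27. Reck, a membrane-anchored MMP inhibitor, was at −0.07 (signals 337 and 353), and Bsg (basigin, an inducer of MMPs) at −0.58, or 1.49-fold lower. Thbs2 (thrombospondin 2), which binds Mmp2 and mediates its uptake, was at −2.57, with ratios of −2.71 and −2.43 on 2 probe sets. A2m, which traps proteinases, was at least 2.32-fold higher, and Lcn2, a partner of Mmp9, was under the floor in both clones.

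The transcription factor list was split evenly. Of 16 genes 14 were measured, 7 above 0 and 7 below, with a median of 0.06. Among AP-1 subunits Junb was at 0.82 (signals 234 and 132), Fos at 0.59 (191 and 127), Jun at −0.07 and Fosl1 at −0.68 (258 and 413). Ets1 was at −0.83, but its 3 measured probe sets ranged from 0.39 to −1.65. Sp1 was at −0.97, with ratios of −0.98 and −0.95 on 2 probe sets, and the epithelial ETS factor Elf3 was at 0.84. Runx2 was not analysed here.

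Inducers of MMP genes had a median of 0.40 over 5 measured of 12, all above 0. Tgfb2 was at 1.55 over 2 measured probe sets, with control signals of 86.7 and 78.7 not far above the floor. Il1b (interleukin 1 beta) was at 0.98 with a control signal of 71.4 near the floor. The 2 bounds of the list went opposite ways. Hgf was at least 1.61-fold higher in hPHD4 cells. Lif, above the floor in control cells alone (signals 11.6 and 94.5), was at least 1.17-fold lower. Of 15 matrix substrates 11 were measured, with a median of −0.20. Among fibrillar collagen genes whose products collagenases cut, Col1a2 was at −0.43 and Col2a1 at 0.57, and Col1a1 was at −0.11, the mean of 2 probe sets at −0.61 and 0.39. Dcn (decorin) lay at −1.78, Col4a1 of basement membranes at 0.67, and the proteoglycan gene Vcan (versican) was at least 2.23-fold higher.

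**Figure D5:**
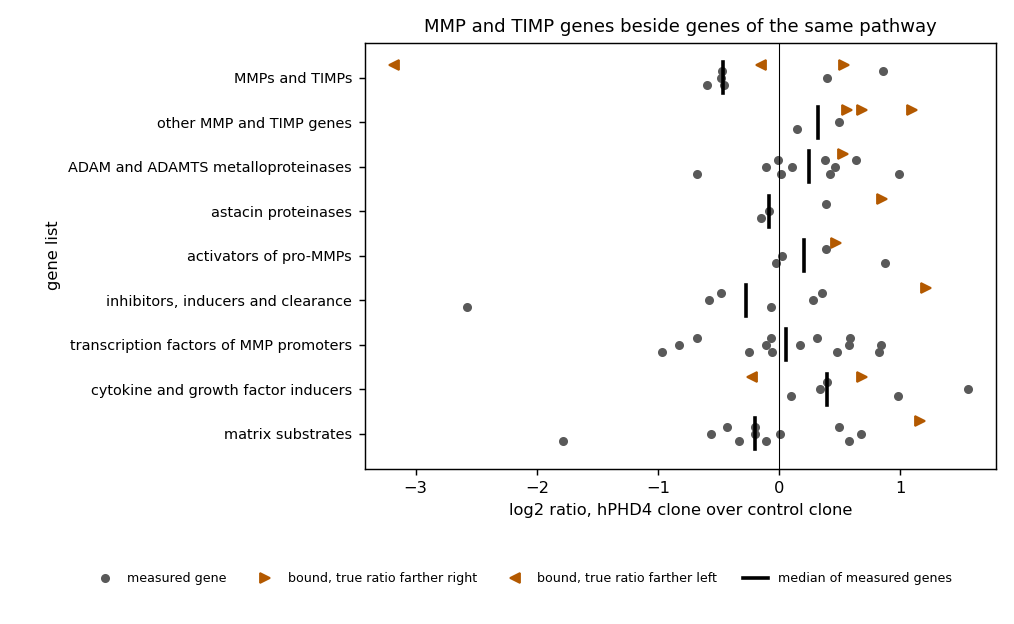
Log2 ratio, hPHD4 over control, of genes in 9 lists: grey points are measured genes, orange triangles are bounds that point towards the values they allow, and black lines are medians of the measured genes. The median of the MMPs and TIMPs is −0.47 and that of the other MMP and TIMP genes, on 2 measured genes, is 0.32; points of most lists lie on both sides of 0.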

How the data were processed

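The deposited file holds log2 signals of 2 arrays, 1 per clone. Per the submitters' processing notes MAS5 was used; which version, and with which settings, is not given in the sources used here. Scale and log base were read off the values: as powers of 2, the 2%-trimmed means were 498 and 497, and the column medians were 7.07 and 6.94 for the hPHD4 and control clones. Of 22690 probe sets, 64 were controls; the platform annotation gave 20380 a single symbol, 691 several and 1555 none. Gene numbers matched a GRCm38.p6 table for 20351, and 0 symbols changed.

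Values, floor, bounds and folds were computed in Python 3.11.15 with pandas 2.3.3 as stated with the results; gene level signals are means of log2 values. A gene whose bound came out on the wrong side of 1 was given no fold. The log2 ratios of bright measured genes and the SD between probe sets were tested on simulated data. Bounds and ratios near the floor were not. Members and lists were chosen with earlier results of these data known. From each list the text names genes at least 1.5-fold higher or lower, up to 4 per direction, and a fixed set of regulators and relatives, whatever their value. Any other gene was named with its value known. Alternatives covered scaling, floor, filter, probe set, pseudocount of 50, chromosome median and fold threshold.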

Additional observations from a re-analysis of the deposited data

How the results depend on the processing

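No paired analysis was possible because each clone had 1 array. The counts of members at least 1.5-fold lower and higher were 2 and 1. The lower count was 1 with dim signals raised to 1 floor, 1 with a pseudocount of 50 and 1 at a 2-fold threshold, each time without Timp2. It was 3 with quantile normalization and 3 with chromosome medians subtracted, both by adding Mmp14, and 3 at a floor of the 20th percentile, by adding Mmp19. With no filter and no floor it was 2, with Mmp19 in place of Timp2. The higher count was 2 at a floor of the 20th percentile, 2 with no filter and no floor and 2 once _x_at and _s_at probe sets were left out, each time by adding Mmp9; it was 2 with the brightest probe set, by adding Timp3, and 0 at 2-fold. The median of the measured members, −0.47, was −0.12 with the brightest probe set, where Mmp2 was 0.01. Over all genes, 1055 measured genes were past 1.5-fold; there were 2217 at a floor of the 20th percentile, 495 at the 60th, 4584 with no filter and no floor, 640 with the pseudocount and 214 at 2-fold. Of the 1055, 63.1% were higher in the hPHD4 clone, against 51.0% with quantile normalization and 50.2% with loess correction; it was 50.7% at a floor of the 60th percentile and 71.2% at the 20th. Of 97 values of single members under alternatives, 87 moved by less than the SD between probe sets (0.35), 10 moved farther and 0 of the called ones changed sign. No member changed direction under quantile normalization, loess correction or median centring. The number of arrays limits the precision.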
